A study of Homo sapiens with 12 samples.

Results

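The genes of the DNA replication machinery were a list of 51 genes chosen by name, with earlier results of these data known. The list covers the proteins that license origins, switch on the replicative helicase, synthesise and join DNA, assemble chromatin behind the fork and protect the fork. Of them, 50 had a probe set that named the gene alone, with 71 such probe sets in all, out of 11963 genes named by a probe set of this kind. UHRF1, an epigenetic reader at replicating DNA, had no named probe set in the annotation used. Where a gene had more than 1 probe set, the brightest on average was used, and 49 of the genes were among the 8021 tested after a filter on low values. E2F2, a transcription factor of S phase genes, lay below the filter.

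The study measured RNA from K562, a human cell line from a chronic myeloid leukaemia that carries the BCR-ABL1 fusion kinase, on 12 Affymetrix U133 A 2.0 arrays. The cells had been given nilotinib (AMN107) at 0.05 µM, imatinib (STI571) at 0.5 µM or the solvent DMSO, for 24 h in every case, with 4 arrays in each group. Both drugs are small-molecule inhibitors of the ABL kinase, and per the labels each was used at its own half-maximal inhibitory concentration. The doses differed, so the comparison of nilotinib with imatinib is of these treatments and not of the compounds at a matched dose. All groups are the same cell line, and nothing in the labels says whether each array had a culture of its own. The p-values therefore cover the spread among these arrays, which may be purely technical.

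Of the erythroid leukaemia markers, 8 of 9 had a probe set and all 8 passed the filter, with a summed signal of 81870 to 89273 with nilotinib, 73290.1 to 80741 with imatinib and 41426 to 46814 with DMSO. Among markers of other cells, 3 of 6 lymphocyte, 3 of 6 monocyte and granulocyte and 2 of 5 fibroblast genes lay above the filter, and the monocyte gene CD14 averaged 15.5 with nilotinib, 5.70 with imatinib and 6.16 with DMSO. The summed lymphocyte signal was 378 to 865 with nilotinib, 360.0 to 701 with imatinib and 530.1 to 638 with DMSO, and the monocyte and granulocyte signal 2987 to 3792 with nilotinib, 2911 to 3693 with imatinib and 3662 to 4167 with DMSO. The fibroblast signal was 700.1 to 773 with nilotinib, 324 to 622 with imatinib and 308 to 566 with DMSO. Median array signal stood at 179 ± 12.1 with nilotinib, 142 ± 8.72 with imatinib and 119 ± 2.15 with DMSO (SD, n = 4 each). The actin 3'/5' control ratio, a measure of RNA and labelling quality, was above 3.5 on nilotinib arrays 1 and 2 and imatinib arrays 5 and 6. The part of these differences in the results below was not tested, except where values without the arrays of high ratio, or with another scaling, are given.

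In dividing cells the origin recognition complex (ORC) marks origins, and CDC6 and CDT1 load the MCM helicase there before S phase begins. The kinase CDC7 with its activator DBF4, together with MCM10, CDC45 and the GINS complex, then turns the loaded helicase into a moving fork, where polymerase alpha with primase starts each strand and polymerases delta and epsilon extend it. Many genes of this machinery are transcribed as cells enter S phase, under control of E2F transcription factors, so their summed RNA is widely read as a mark of cycling cells. In RNA from a whole culture, fewer cells in S phase and less RNA of these genes per cell cannot be told apart.

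Replication genes were lower with nilotinib than with imatinib. Of the 49 genes tested, 28 were called lower and 0 higher with limma (adjusted p under 0.05), whereas 8.22% of all genes tested were called lower and 5.82% higher. On the log2(signal + 16) scale, used for all log2 values, the median difference of the 49 genes was -0.36, beside 0.052 for all genes tested, and 48 of the 49 differences were negative. Over all 50 genes with a probe set, without the filter, the median was -0.36 and 49 were negative. For 27 of the genes every nilotinib array lay below every imatinib array, and for 0 every one lay above, where the shares of all genes tested were 8.54% and 9.50%. The genes lower with nilotinib included HELLS, GINS1, CDC45, FEN1 and GINS2, whose differences lay between -0.96 and -0.69. With a minimum change of 0.5 the count was 15, beside 2.12% of all genes, and it was 46 with median centring, where 33.0% of all genes were lower.

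Against DMSO the treatments differed in what they did to this list. With nilotinib 28 genes fell and 3 rose, beside 23.5% and 34.7% of all genes tested, and the median log2 fold change was -0.30 beside 0.15 for all genes. With imatinib 6 fell and 14 rose, beside 17.3% and 22.0% of all genes, shares close to the background, and the median was 0.099 beside 0.091. The groups did not overlap for 21 genes lower and 3 higher with nilotinib, where all genes tested gave 20.9% and 29.8%, and for 6 lower and 12 higher with imatinib, where all genes gave 17.6% and 21.5%. Both comparisons use the same DMSO arrays. With median centring nilotinib had 45 lower and 0 higher and imatinib 9 lower and 2 higher, which is the setting that changed most calls. Median centring also moved the median of all genes down, so the shares of all genes above are not the background of these counts. The share of all genes called against DMSO with median centring is not given here, so these counts alone are not a result about the list. Under quantile normalization, cyclic loess and median centring together, 22 of the 28 falls and 0 of the 3 rises with nilotinib kept their call, and 5 of the 6 falls and 2 of the 14 rises with imatinib did. Without imatinib array 6 the number higher with imatinib was 9, beside 14 with all arrays, and the share of all genes without that array is not given.

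**Figure D1:**
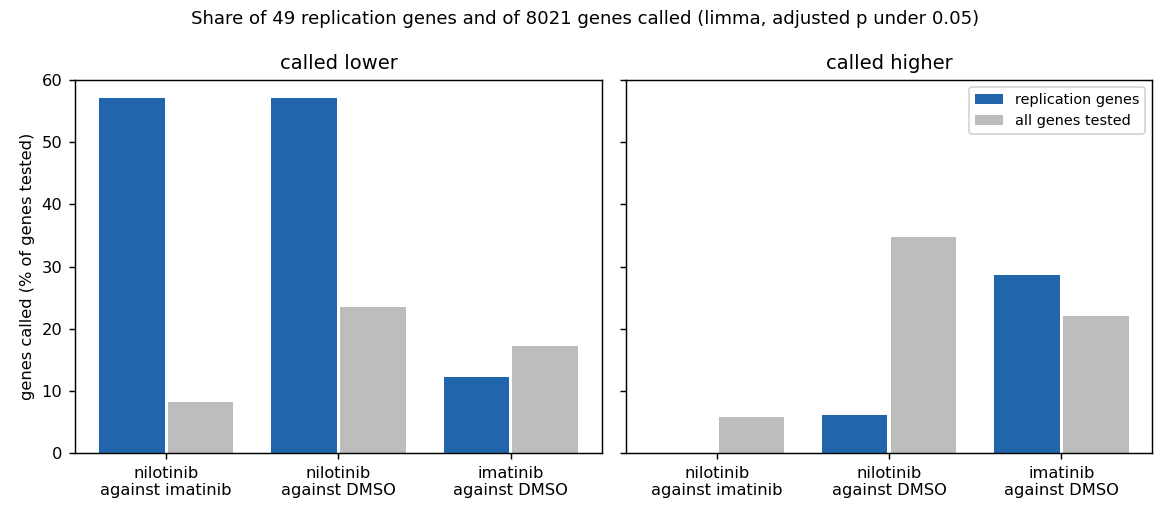
Bars give the percentage of genes called lower (left) and higher (right) at an adjusted p under 0.05 in each comparison, for the 49 replication genes tested (blue) and all 8021 genes tested (grey). The replication genes stand at 57.1% lower for nilotinib against imatinib and for nilotinib against DMSO, above 8.22% and 23.5% of all genes. They stand at 0% and 6.12% higher in these comparisons, below 5.82% and 34.7% of all genes. For imatinib against DMSO they stand at 12.2% lower and 28.6% higher, beside 17.3% and 22.0% of all genes.

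The shift with nilotinib was on every array of that group. The median of the 49 genes, each taken as the difference from its DMSO mean, was -0.26, -0.32, -0.30 and -0.35 on the nilotinib arrays and 0.033, 0.16, 0.055 and 0.15 on the imatinib arrays. On the DMSO arrays it went from -0.047 to 0.023. That spread lies near 0 by construction, because the DMSO mean was taken from these same arrays. The same median over all genes tested was 0.13 to 0.16 on the nilotinib arrays and 0.072 to 0.11 on the imatinib arrays, above 0 on every nilotinib array where the replication genes were below it. Of the 49 genes, 34 to 39 lay below their DMSO mean on a nilotinib array and 11 to 21 on an imatinib array. Between the arrays of high actin ratio the median difference of nilotinib from imatinib was -0.40, with 45 of 49 negative, and between those of lower ratio it was -0.39, with 44 of 49 negative (2 arrays of each drug).

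**Figure D2:**
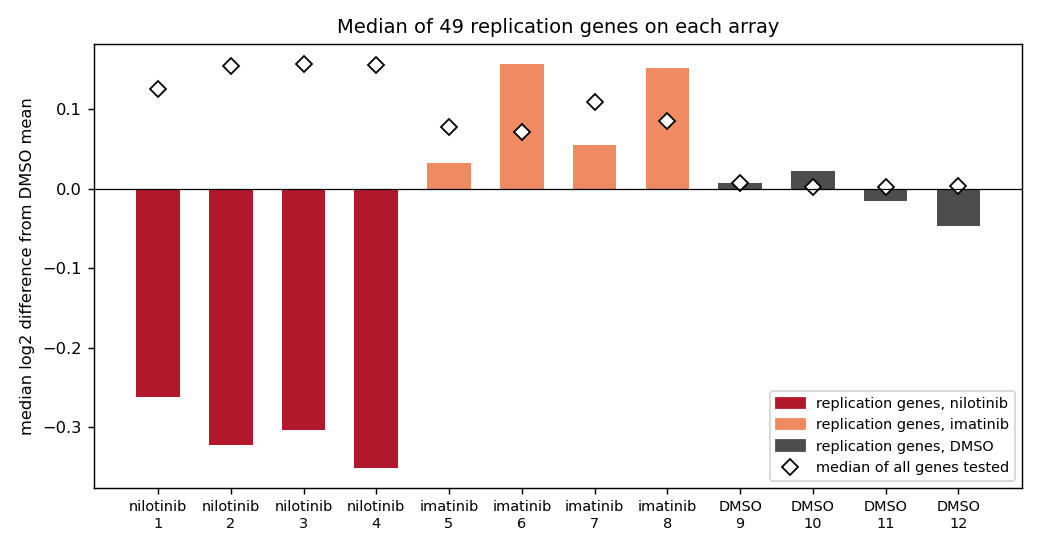
Bars give, for each array, the median over the 49 replication genes tested of the log2 difference from the gene's DMSO mean, and diamonds give the same median over all 8021 genes tested. Bars of the 4 nilotinib arrays lie between -0.35 and -0.26 with diamonds above 0, and bars of the 4 imatinib arrays lie between 0.033 and 0.16.

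The promoters of genes with the largest differences are shown here to set their sequence beside the letters that E2F factors are known to bind. RefSeq promoter windows of the GRCh38.p14 build, from 250 bases before to 50 bases after a start site, were found for 47 of the 51 genes, 59 windows in all, and not for RPA2, RPA3, MCM4 and MCM5. The motifs searched on both strands were TTTCCCGC, TTTGGCGC, TTTCGCGC and TTTGCCGC, whose matches can overlap each other. A match stood in 24 of the 47 genes (51.1%) and in 25 of their 59 windows (42.4%). Among all genes tested that had a window, the shares were 7.10% of genes and 5.10% of windows. Of all 35116 windows of this length, 3.31% held a match. Among genes with a window, a match stood in 12 of the 25 called lower with nilotinib than with imatinib (48.0%) and in 10 of the 20 tested and not called (50%). The sequences below are the 4 genes of largest difference whose window holds a match, and ORC2, the gene nearest to no difference, whose window holds none. Capitals mark each match, and every sequence is read along the strand of its gene.
HELLS (chr10:94545538-94545837, plus strand): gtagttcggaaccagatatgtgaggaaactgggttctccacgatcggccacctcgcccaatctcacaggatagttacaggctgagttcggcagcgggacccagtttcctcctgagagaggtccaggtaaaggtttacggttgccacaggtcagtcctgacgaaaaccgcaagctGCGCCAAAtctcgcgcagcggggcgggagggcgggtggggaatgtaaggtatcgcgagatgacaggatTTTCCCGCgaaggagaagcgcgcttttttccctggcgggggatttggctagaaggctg
GINS1 (chr20:25407423-25407722, plus strand): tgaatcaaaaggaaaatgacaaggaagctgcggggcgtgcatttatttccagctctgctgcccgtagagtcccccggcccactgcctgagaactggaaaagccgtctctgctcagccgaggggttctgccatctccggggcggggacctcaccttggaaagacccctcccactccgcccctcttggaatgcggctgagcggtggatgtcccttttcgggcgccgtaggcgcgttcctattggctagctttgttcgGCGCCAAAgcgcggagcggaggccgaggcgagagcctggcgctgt
GINS2 (chr16:85688905-85689204, minus strand): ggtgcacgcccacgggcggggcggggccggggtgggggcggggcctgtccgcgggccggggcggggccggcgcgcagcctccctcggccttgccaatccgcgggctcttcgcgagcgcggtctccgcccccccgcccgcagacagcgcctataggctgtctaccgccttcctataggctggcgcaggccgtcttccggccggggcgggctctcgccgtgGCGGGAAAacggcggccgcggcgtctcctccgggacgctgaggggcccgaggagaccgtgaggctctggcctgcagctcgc
LIG1 (chr19:48170295-48170594, minus strand): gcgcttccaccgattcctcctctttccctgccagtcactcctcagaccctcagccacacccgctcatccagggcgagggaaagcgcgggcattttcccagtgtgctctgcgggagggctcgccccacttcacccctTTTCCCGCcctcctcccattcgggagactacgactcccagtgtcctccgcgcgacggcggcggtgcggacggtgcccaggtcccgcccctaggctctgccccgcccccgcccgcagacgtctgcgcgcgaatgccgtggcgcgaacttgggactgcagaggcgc
ORC2 (chr2:200963611-200963910, minus strand): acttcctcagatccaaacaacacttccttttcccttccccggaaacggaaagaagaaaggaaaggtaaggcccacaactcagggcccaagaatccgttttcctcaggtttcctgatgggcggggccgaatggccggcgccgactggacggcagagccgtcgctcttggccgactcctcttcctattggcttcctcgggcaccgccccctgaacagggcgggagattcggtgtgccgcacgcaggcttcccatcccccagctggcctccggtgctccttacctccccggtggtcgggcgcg

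In the HELLS window the matches began 76 and 8 bases before the start site, in the GINS2 window 31 bases and in the LIG1 window 114 bases before it, and in the GINS1 window 5 bases after it. CDC45 and FEN1, which were lower by as much, had no match in their windows, and no match says only that these letters are not there.

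Among the 14 licensing genes, 8 were lower with nilotinib than with imatinib, beside 8.22% of all genes, with a median of -0.35. On the probe sets used, MCM6 had the largest difference of the 6 helicase subunits, but probe sets of MCM4 and MCM7 that were not used went further. MCM6 had a signal of 3895, 3129, 3305 and 3363 on the nilotinib arrays, 4689.7, 5368, 4739 and 5672 on the imatinib arrays and 4694, 4773, 4746 and 4516 on the DMSO arrays. All nilotinib arrays lay below all others, with a difference of -0.58 ± 0.076 from imatinib (SE, limma adjusted p = 9.39e-05) and of -0.45 ± 0.076 from DMSO. MCM5 had a signal of 1317, 1422, 1122 and 1248 on the nilotinib arrays, 1726, 2047, 1694 and 1859.6 on the imatinib arrays and 1340.4, 1494, 1438 and 1285 on the DMSO arrays. For MCM5 the imatinib arrays stood above both other groups, at -0.52 ± 0.089 for nilotinib against imatinib and 0.39 ± 0.089 for imatinib against DMSO, while nilotinib against DMSO was -0.12 (adjusted p = 0.243). The other MCM5 probe set had -0.0080 for nilotinib against imatinib, not called, and 0.36 for nilotinib against DMSO, called higher. MCM7 was called lower with nilotinib than with imatinib in both of its probe sets, at -0.44 in the one used and -0.67 in the other. The signal of MCM4 was 2374, 2345, 2277 and 2211 with nilotinib, 2916, 3248, 2974 and 2900.3 with imatinib and 2328, 1954, 2340.1 and 2429.5 with DMSO. MCM4 was called lower with nilotinib than with imatinib at -0.38. In that comparison its 4 probe sets went from -1.19 to 0.16, with 3 called lower and 0 higher. For nilotinib against DMSO its 4 probe sets went from -0.81 to 0.74, with 2 called lower and 1 higher, and no direction is given for it there. With imatinib against DMSO MCM4 was called higher, at 0.41 ± 0.074, as were 3 of its 4 probe sets, a call lost in 2 of 26 alternatives. MCM2 and MCM3 were not called against imatinib, at -0.27 (adjusted p = 0.108) and -0.20 (adjusted p = 0.163). Against DMSO MCM2 was called higher with imatinib, at 0.36, and MCM3 lower with nilotinib, at -0.24. These 2 calls were lost in 3 and 7 of 26 alternatives.

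The loading factor CDC6 had signals of 512, 424, 377 and 474 with nilotinib, against 621, 676, 650.2 and 736 with imatinib, and of 679.9, 644, 653 and 664 with DMSO. The nilotinib arrays lay apart from both other groups, at -0.58 ± 0.11 from imatinib (adjusted p = 0.00249) and -0.56 ± 0.11 from DMSO, although the dimmer of its 2 probe sets was not called in either, at -0.085 from imatinib and -0.041 from DMSO. CDT1, the other loader, had -0.36 for nilotinib against imatinib and did not pass (adjusted p = 0.0583), with arrays that did not overlap. The subunits of the origin recognition complex split. ORC5 had signals of 866, 970.2, 1157 and 1027 with nilotinib, against 1296, 1561, 1441 and 1570.0 with imatinib, and of 1447, 1563, 1487 and 1704 with DMSO, a difference of -0.54 ± 0.10 from imatinib and -0.62 ± 0.10 from DMSO. Its second probe set had -0.22 from imatinib, not called, and -0.50 from DMSO, called lower. The signal of ORC3 was 713, 693, 827 and 798 with nilotinib, 1039, 1048, 872 and 871 with imatinib and 1191, 1158, 1109 and 1167 with DMSO. ORC3 lay lower on every nilotinib array than on any imatinib array, and lower there than on any DMSO array. ORC3 fell with both drugs, with log2 fold changes of -0.60 with nilotinib and -0.27 with imatinib, and the drugs differed by -0.33 ± 0.094, where the adjusted p was 0.0269. The call between the drugs was lost in 7 of 26 alternatives, and without the arrays of high actin ratio the ORC3 difference was -0.100 (adjusted p = 0.604). The signal of ORC4 was 1263, 1166, 1155 and 1357 with nilotinib, 1486, 1498, 1316 and 1203 with imatinib and 1582, 1724, 1562 and 1737 with DMSO. ORC4 also fell with both, at -0.42 with nilotinib and -0.26 with imatinib, but its second probe set had 0.099 with imatinib. ORC1 and ORC6 fell with nilotinib, at -0.34 and -0.30, with arrays that overlapped those of DMSO, and ORC6 was also called lower than with imatinib, at -0.35. The signal of ORC2 was 398, 331, 412 and 509 with nilotinib, 317, 441, 385 and 482 with imatinib and 438, 416, 374 and 411 with DMSO. All groups of ORC2 overlapped. ORC2 was the gene nearest to no difference between the drugs, at 0.021 (95% interval -0.29 to 0.34), and for nilotinib against DMSO, at -0.0037. For imatinib against DMSO it had -0.025, and there SLBP was nearest, at 0.00024.

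The genes that turn the loaded helicase on had 7 of 8 called lower with nilotinib than with DMSO, beside 23.5% of all genes, and 6 of 8 called lower than with imatinib, beside 8.22%, with medians of -0.49 and -0.47. GINS1 had a signal of 643, 685, 754 and 529.6 on the nilotinib arrays, 1175, 1302, 1285 and 1049 on the imatinib arrays and 1118, 959.7, 1180.5 and 903 on the DMSO arrays. No nilotinib array reached the lowest array of either other group, and GINS1, a subunit of the active helicase, differed by -0.87 ± 0.12 from imatinib (adjusted p = 0.000107). CDC45 had a signal of 1057, 1334, 1277 and 1189.6 on the nilotinib arrays, 1953, 2149, 1911 and 2279 on the imatinib arrays and 2061, 2078, 2115 and 1974 on the DMSO arrays. The imatinib and DMSO arrays of CDC45, another subunit, overlapped, with 0.0078 for imatinib against DMSO (95% interval -0.17 to 0.18), while the difference of nilotinib from imatinib was -0.77 ± 0.083 (adjusted p = 2.09e-05). GINS2 had a signal of 1718, 2053, 2004 and 1824 on the nilotinib arrays, 3249, 2953, 3061 and 3037 on the imatinib arrays and 2737, 2359, 2459.7 and 3092 on the DMSO arrays. GINS2 was lower on every nilotinib array than on any other, with -0.69 ± 0.085 between the drugs, -0.48 ± 0.085 for nilotinib and 0.21 ± 0.085 for imatinib against DMSO, the last not called (adjusted p = 0.0522). GINS3 had -0.36 with nilotinib against DMSO, called lower, and was not called between the drugs. The call against DMSO was lost in 6 of 26 alternatives, and the second GINS3 probe set had -0.13 and was not called.

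DBF4, the activator of the CDC7 kinase, fell with both drugs, and further with nilotinib. DBF4 had a signal of 1576, 1407, 1518 and 1515 on the nilotinib arrays, 2055, 2191, 1960.1 and 1901 on the imatinib arrays and 3435, 3065, 2947 and 2864 on the DMSO arrays. The 3 groups did not overlap, and the log2 fold changes against DMSO were -1.02 ± 0.075 with nilotinib (adjusted p = 1.25e-09) and -0.60 ± 0.075 with imatinib (adjusted p = 3.27e-06), with -0.43 ± 0.075 between the drugs. CDC7 itself was not called in any comparison, at 0.13 with nilotinib and 0.24 with imatinib against DMSO. MCM10, which helps activate the helicase, had signals of 495, 519, 533 and 638 with nilotinib, against 709.7, 829.8, 770.3 and 815 with imatinib, and of 732, 870.1, 756 and 750.1 with DMSO. Its difference was -0.51 ± 0.11 between the drugs, and the imatinib and DMSO arrays overlapped. TOPBP1, an adaptor of origin firing and of the checkpoint, was called lower with nilotinib in both comparisons, at -0.28 from imatinib and -0.23 from DMSO, calls that were lost in 15 and 7 of 26 alternatives. Without nilotinib array 3 the TOPBP1 value against DMSO was -0.16 and not called.

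**Figure D3:**
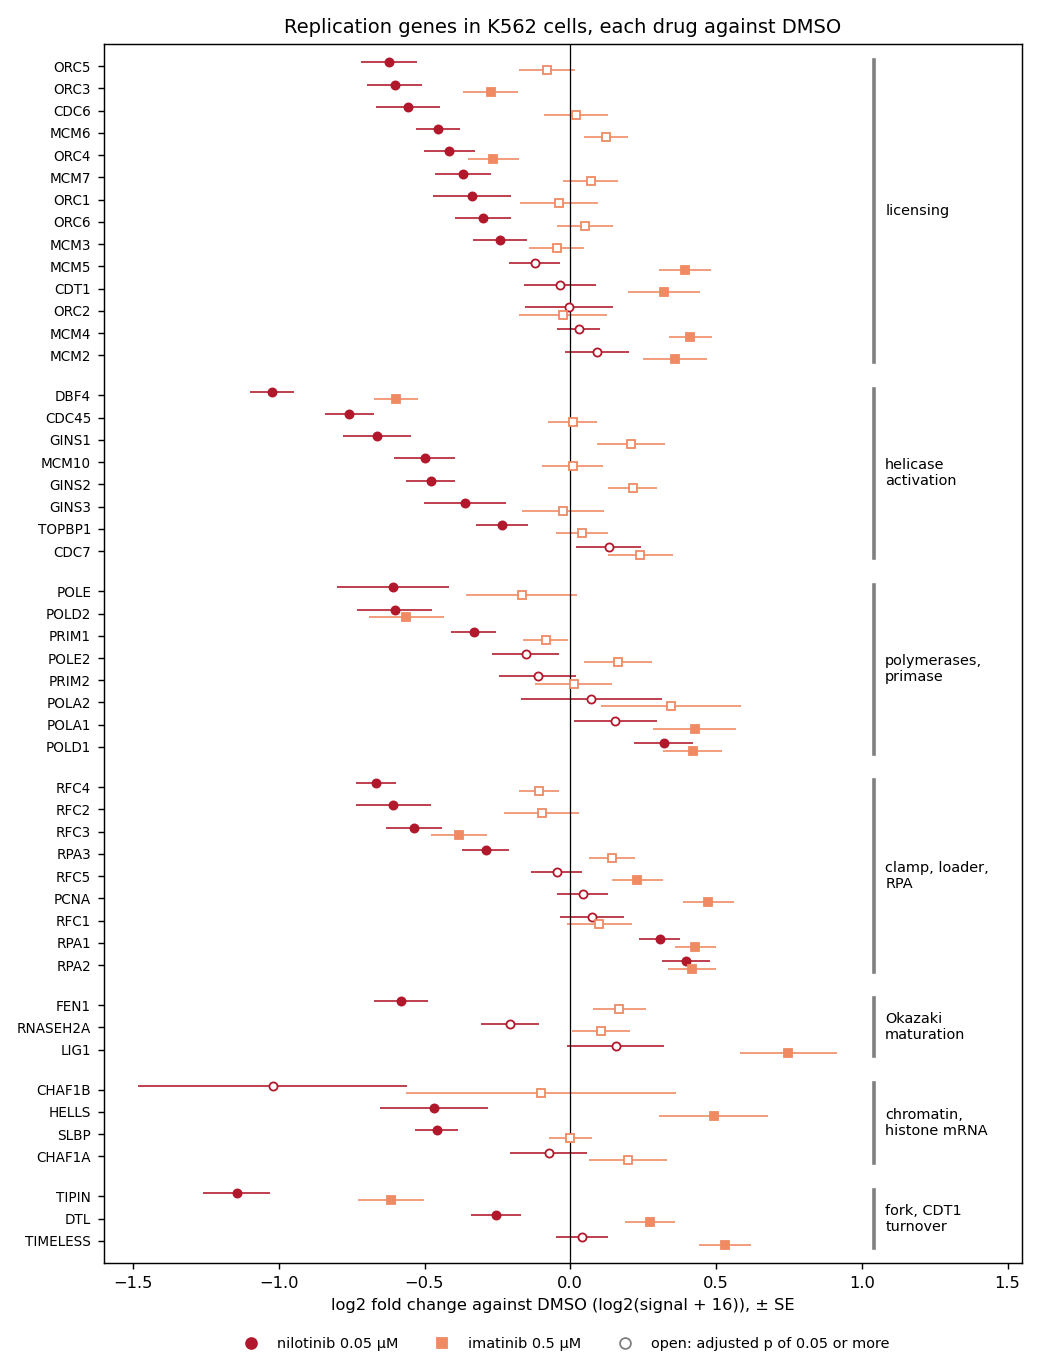
Each row is a replication gene, grouped by role, with its log2 fold change against DMSO for nilotinib (red circles) and imatinib (orange squares), with standard errors and open symbols where the gene was not called. Nilotinib lies to the left of imatinib in 48 of 49 rows, and the exception is ORC2.

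The polymerase and primase genes had the fewest calls for their number between the drugs, with a median of -0.26. Only 1 of 8 was called lower (12.5%), which is near the 8.22% of all genes. That gene was PRIM1, the catalytic primase subunit, at -0.25 ± 0.076 (adjusted p = 0.0379), a call lost in 13 of 26 alternatives, with -0.12 for PRIM1 without the arrays of high actin ratio. Against DMSO 3 of the 8 fell and 1 rose with nilotinib, beside 23.5% and 34.7% of all genes, and 1 fell and 2 rose with imatinib, beside 17.3% and 22.0%, which is near the background. POLD2, an accessory subunit of polymerase delta, fell with both drugs. POLD2 had a signal of 683, 642, 751 and 614 on the nilotinib arrays, 731, 499, 783 and 794 on the imatinib arrays and 919.8, 1001, 1107 and 1091 on the DMSO arrays. The drug arrays of POLD2 overlapped each other and lay below DMSO, at -0.60 ± 0.13 with nilotinib and -0.56 ± 0.13 with imatinib, and -0.041 between them (95% interval -0.31 to 0.23). POLD1, the catalytic subunit of the same enzyme, went the other way. POLD1 had a signal of 898, 913, 991 and 897 on the nilotinib arrays, 832, 989.6, 1015 and 1154 on the imatinib arrays and 718, 778, 771 and 685 on the DMSO arrays. POLD1 rose by 0.32 ± 0.10 with nilotinib (adjusted p = 0.0105) and 0.42 ± 0.10 with imatinib (adjusted p = 0.00241), but with median centring neither call held and the value with nilotinib turned to -0.20. The signal of POLE was 329.8, 356, 226 and 352 with nilotinib, 364, 453, 345 and 592 with imatinib and 487, 657, 449 and 379 with DMSO. The nilotinib arrays of POLE lay below the DMSO arrays and overlapped the imatinib arrays. POLE, the catalytic subunit of polymerase epsilon, was called lower with nilotinib than with DMSO at -0.61 ± 0.19 (adjusted p = 0.0109), and had -0.44 against imatinib (adjusted p = 0.124). The signal of POLA1 was 375, 458, 407 and 429.9 with nilotinib, 451, 562.2, 491 and 527 with imatinib and 372, 446, 415 and 279 with DMSO. POLA1, the catalytic subunit of polymerase alpha, rose with imatinib by 0.43 ± 0.14, a call that each of quantile, cyclic loess and median scaling removed. POLA2, POLE2 and PRIM2 were not called in any comparison, with differences between the drugs of -0.27, -0.32 and -0.12.

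Of the 9 genes of the sliding clamp, its loader and the single-strand binding protein RPA, 5 were lower with nilotinib than with imatinib. The share of all genes called lower was 8.22%, and the median of the 9 genes was -0.28. RFC4, a loader subunit, had the largest difference. RFC4 had a signal of 3008, 3084, 2877 and 2713 on the nilotinib arrays, 4634, 4629, 4103 and 3916 on the imatinib arrays and 4789, 4616, 4437 and 4732 on the DMSO arrays. The nilotinib arrays of RFC4 stood apart from both other groups, with -0.56 ± 0.069 from imatinib (adjusted p = 4.94e-05) and -0.67 ± 0.069 from DMSO (adjusted p = 1.53e-07). The signal of RFC2 was 702, 553, 609 and 592 with nilotinib, 805, 978, 939.5 and 800.2 with imatinib and 1024, 1199, 783 and 810.4 with DMSO. RFC2 was called lower than with imatinib in 1 of its 2 probe sets, at -0.51, and was called lower than with DMSO at -0.61 ± 0.13 (adjusted p = 0.000548) in the same probe set. The other had -0.18 from imatinib and -0.12 from DMSO and was not called. The signal of RFC3 was 998, 975, 872 and 981 with nilotinib, 1054, 1220.1, 893 and 1119.7 with imatinib and 1532, 1299, 1366 and 1384 with DMSO. RFC3 fell with both drugs in both of its probe sets, at -0.54 with nilotinib and -0.38 with imatinib, and the drugs were not called apart (95% interval -0.36 to 0.048). RFC5 was higher with imatinib than with DMSO and lower with nilotinib than with imatinib, but these calls were lost in 12 and 15 of 26 alternatives, and RFC1, the large subunit, was called in no comparison, with -0.024 between the drugs.

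PCNA had a signal of 5138, 4210.3, 3809.6 and 3860.0 on the nilotinib arrays, 5736, 6487, 5249.7 and 5394 on the imatinib arrays and 4084, 4357, 3853 and 4123 on the DMSO arrays. PCNA, the clamp itself, stood higher on every imatinib array than on any array of the other groups, although nilotinib array 1 came close. Its difference between the drugs was -0.43 ± 0.088 (adjusted p = 0.00397). PCNA rose with imatinib by 0.47 ± 0.088 against DMSO, a call lost with median centring, and had 0.042 with nilotinib against DMSO (95% interval -0.14 to 0.23). The RPA subunits split in their direction for nilotinib against DMSO. RPA3 was called lower with nilotinib than with DMSO, at -0.29 ± 0.079 (adjusted p = 0.00419), with arrays that overlapped. That call was lost in 2 of 26 alternatives. RPA3 was also called lower with nilotinib than with imatinib, at -0.43 ± 0.079, and had 0.14 with imatinib against DMSO, not called. RPA2 had a signal of 3317, 2693, 2430.1 and 2770.4 on the nilotinib arrays, 2688, 2942, 2859 and 2827 on the imatinib arrays and 2110.3, 1986, 2207 and 2151 on the DMSO arrays. RPA2 rose with both drugs, by 0.40 ± 0.082 with nilotinib and 0.42 ± 0.082 with imatinib, with -0.022 between them (95% interval -0.19 to 0.15), and with median centring it turned to -0.13 with nilotinib and neither call held. The signal of RPA1 was 1914, 2128, 2038 and 2066 with nilotinib, 2118, 2236, 2205 and 2315 with imatinib and 1581, 1751, 1704 and 1544 with DMSO. All drug arrays of RPA1 lay above all DMSO arrays. RPA1 rose by 0.31 ± 0.070 with nilotinib and 0.43 ± 0.070 with imatinib, and with median centring it turned to -0.22 with nilotinib, called lower, and lost its call with imatinib.

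All 3 genes that finish Okazaki fragments were lower with nilotinib than with imatinib, beside 8.22% of all genes. FEN1 had a signal of 1659.5, 1611, 1565 and 1521 on the nilotinib arrays, 2272, 2726, 2488 and 3356 on the imatinib arrays and 2320.1, 2479, 2385 and 2357 on the DMSO arrays. FEN1, the flap nuclease, was below every other array on all nilotinib arrays, at -0.75 ± 0.092 from imatinib (adjusted p = 4.94e-05) and -0.58 ± 0.092 from DMSO, and its second probe set had -0.34 and -0.24 and was not called in either. LIG1 had a signal of 296, 338, 345 and 367 on the nilotinib arrays, 397, 534, 453 and 725 on the imatinib arrays and 322, 319.7, 244 and 322 on the DMSO arrays. LIG1, the ligase that seals the fragments, was the gene that rose most with imatinib, by 0.75 ± 0.17 against DMSO (adjusted p = 0.00137), and that call held in all 26 alternatives. With nilotinib LIG1 had 0.16 against DMSO (adjusted p = 0.434) and -0.59 ± 0.17 against imatinib (adjusted p = 0.0248), the second a call lost in 4 of 26 alternatives. RNASEH2A, a subunit of the enzyme that removes RNA from primers, was called lower than with imatinib at -0.31, a call lost in 14 of 26 alternatives.

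Of the 4 measured genes of chromatin assembly, DNA methylation upkeep and histone mRNA, 2 were lower with nilotinib than with imatinib, beside 8.22% of all genes. HELLS had a signal of 289.9, 293, 252 and 225 on the nilotinib arrays, 466, 627, 475 and 555 on the imatinib arrays and 392, 555, 254 and 338 on the DMSO arrays. HELLS, a chromatin remodeller needed for DNA methylation, showed the largest called difference of the list between the drugs, -0.96 ± 0.19 (adjusted p = 0.00268), with a wide spread among the DMSO arrays. Against DMSO it was -0.47 ± 0.19 with nilotinib and 0.49 ± 0.19 with imatinib, called in opposite directions (adjusted p = 0.0385 with nilotinib and 0.0432 with imatinib), but these calls were lost in 7 of 26 alternatives with nilotinib and 13 of 26 with imatinib. Without DMSO array 10 the HELLS value with nilotinib was -0.28, and without DMSO array 11 the value with imatinib was 0.32, neither called. The signal of SLBP was 2405, 2142, 2535 and 2146 with nilotinib, 3298, 3363, 3076 and 2948 with imatinib and 3059, 3434, 3131 and 3056 with DMSO. SLBP, which binds the stem-loop of histone mRNA, had -0.46 from imatinib and -0.46 from DMSO, both called in all 26 alternatives, and the imatinib and DMSO arrays overlapped. CHAF1A and CHAF1B, the large and middle subunits of chromatin assembly factor, were not called in any comparison on the probe sets used, but another of the 3 CHAF1A probe sets was called higher with imatinib than with DMSO, at 0.69 ± 0.19 (adjusted p = 0.00770). CHAF1B had a signal of 250.2, 46.5, 274 and 21.4 on the nilotinib arrays, 208, 183, 209.6 and 215 on the imatinib arrays and 245, 196, 217 and 221 on the DMSO arrays. For CHAF1B nilotinib arrays 2 and 4 stood far below arrays 1 and 3 of the same group, which gave a difference from imatinib of -0.92 ± 0.46 with too wide an error to pass (adjusted p = 0.181).

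The 3 genes of fork protection and CDT1 turnover were all lower with nilotinib than with imatinib, beside 8.22% of all genes. Against DMSO they had 3 different patterns. TIPIN had a signal of 455, 420.2, 465 and 539 on the nilotinib arrays, 720.3, 735, 548 and 749 on the imatinib arrays and 1086, 983, 1045 and 1107 on the DMSO arrays. TIPIN fell with both drugs, at -1.14 with nilotinib (adjusted p = 8.30e-08) and -0.61 with imatinib (adjusted p = 0.000240) on the log2 scale, the largest called fall of the list with each drug. The TIPIN difference between the drugs was -0.53, and without the arrays of high actin ratio it was -0.35 and not called. TIMELESS had a signal of 1362, 1356, 1362 and 1081 on the nilotinib arrays, 1734, 1940.4, 1722 and 1849 on the imatinib arrays and 1254, 1371, 1226 and 1154 on the DMSO arrays. TIMELESS, whose protein is the partner of TIPIN at the fork, rose with imatinib by 0.53 ± 0.089 (adjusted p = 9.21e-05), a call that held in all 26 alternatives, and had 0.040 with nilotinib (95% interval -0.15 to 0.23). DTL had a signal of 1793, 1569, 1690.2 and 1443 on the nilotinib arrays, 2380.1, 2609, 2222 and 2174 on the imatinib arrays and 2126, 1984, 1836 and 1809 on the DMSO arrays. DTL, which targets CDT1 for destruction, was the other gene called in opposite directions against DMSO, -0.25 ± 0.085 with nilotinib and 0.27 ± 0.085 with imatinib, each call lost in 4 of 26 alternatives, and the difference between the drugs of -0.53 ± 0.085 held in all. E2F2 was dim on every array, with signals of 26.4, 67.2, 21.0 and 49.0 with nilotinib, 52.3, 37.5, 172 and 18.1 with imatinib and 6.17, 13.5, 6.57 and 17.5 with DMSO, and was not tested. Its DMSO arrays all lay below its drug arrays, and the median signal of an array, given above, was lowest with DMSO too. The part of this in the E2F2 values was not tested.

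**Figure D4:**
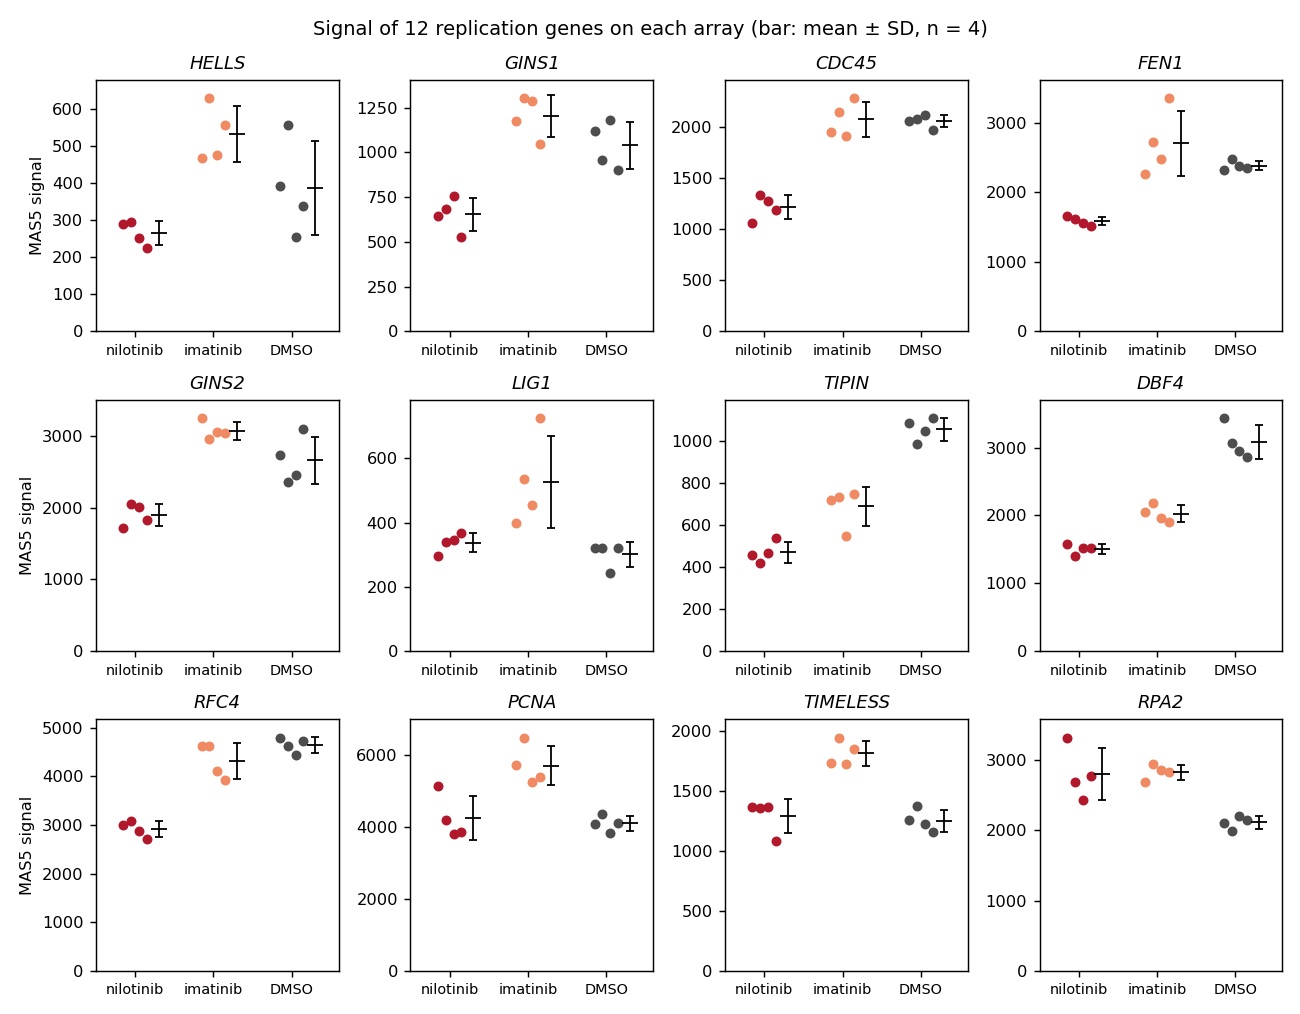
Each panel is a gene, with the MAS5 signal of each array as a point for nilotinib, imatinib and DMSO and the mean ± SD beside it (n = 4). In HELLS, GINS1, CDC45, FEN1, GINS2 and RFC4 nilotinib lies below imatinib, in LIG1, PCNA and TIMELESS imatinib lies above both other groups, in TIPIN and DBF4 both drugs lie below DMSO, and in RPA2 both lie above it.

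Most calls were not repeated in every probe set of a gene. Of the 14 genes with at least 2 probe sets past the filter, 8 had a probe set called for nilotinib against imatinib, and MCM7 was the 1 gene called in all of its probe sets. For nilotinib against DMSO 11 genes had a probe set called and 4 had all of them called one way, MCM7, ORC5, RFC3 and RPA1. For imatinib against DMSO the counts were 7 and 2, the 2 being RFC3 and RPA1. Calls in opposite directions occurred for 0, 1 and 0 genes, and the 1 was MCM4. A gene's probe sets were also averaged instead of taking the brightest. Of the 28 genes lower with nilotinib than with imatinib, 2 then lost their call and 0 genes gained one, which left 26. This sets 2 ways of choosing probe sets side by side, and not the list beside all genes.

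Further genes of replication were counted apart from the list. Of 25 tested out of 34 further replisome and origin genes, 9 were lower with nilotinib than with imatinib and 0 higher, beside 8.22% and 5.82% of all genes. Their median was -0.20, beside 0.052 for all genes. GINS4, the remaining subunit of its complex, had -0.87 ± 0.26, the helicase gene RECQL4 had -0.59 ± 0.19, the topoisomerase TOP2A had -0.49 ± 0.084 and the histone chaperone ASF1B had -0.48 ± 0.12 (SE). Against DMSO 6 of the 25 fell and 4 rose with nilotinib, beside 23.5% and 34.7% of all genes, and 3 fell and 7 rose with imatinib, beside 17.3% and 22.0%. The polymerase delta subunit POLD4 rose with both drugs, by 0.95 ± 0.18 with nilotinib and 0.81 ± 0.18 with imatinib. Of 15 tested out of 16 genes of the E2F and RB families and S phase cyclins, 3 were lower and 1 higher with nilotinib than with imatinib, beside 8.22% and 5.82% of all genes. The cyclin genes CCNA2 and CCNE1 had -0.53 ± 0.092 and -0.41 ± 0.13, the kinase gene CDK2 had -0.38 ± 0.088, and the E2F gene E2F4 had 0.44 ± 0.12. Against DMSO 6 of these 15 fell and 5 rose with nilotinib, beside 23.5% and 34.7% of all genes. With imatinib 2 fell and 5 rose, beside 17.3% and 22.0%. E2F5 fell with both drugs, at -1.33 ± 0.25 with nilotinib and -1.42 ± 0.25 with imatinib. E2F8 rose with both, at 0.51 ± 0.12 with nilotinib and 0.83 ± 0.12 with imatinib. RBL2, an RB family gene, rose by 0.71 ± 0.13 with nilotinib and 0.46 ± 0.13 with imatinib.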

How the data were processed

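The values are intensities, MAS5 signals on a linear scale that the authors deposited, per the submitters' processing notes, which give no version. From their values, each array was scaled to a 2% trimmed mean near 500.1. Probe sets were named from the platform annotation of the array and 1043 that name several genes were left out, so that 19064 of 22215 non-control probe sets were kept. Signals were taken as log2(signal + 16), a pseudocount of 16, which understates the change of dim genes. Probe sets with a mean under the 40th percentile of all were left out, and the brightest probe set stood for each gene. A linear model with 1 mean per group was fitted to all 12 arrays and 8021 genes in limma 3.58.1 with R 4.3.3 (lmFit, and eBayes with a trend), p-values were adjusted by the Benjamini-Hochberg method within each of 3 comparisons, and genes were called at 0.05. The script was tested on simulated data. Values after ± are standard errors, unless SD is given.

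The replication genes and the other lists were chosen with earlier results of these data known. Per comparison and direction, up to 10 called genes with the largest changes and groups that do not overlap were named with every array's value, along with genes called in opposite directions, nearest to no change or below the filter. Alternatives covered the pseudocount, filter, scaling, probe set choice, variance model, high actin ratio and left-out arrays. No array column was left unmapped. The number of arrays, 4 per group, limits the precision.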

Additional observations from a re-analysis of the deposited data

Results flagged for a closer look

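In 7 of 150 groups of 4 arrays (4.67%), 1 array of a replication gene stood apart from the other 3 by Dixon's test at the 95% level, and chance flags about 1 in 20. MCM7 read 1503 on nilotinib array 1 where the others read 1829 to 1886, and 1929 on imatinib array 5 where the others read 2548 to 2602. RPA3 read 3756.5 on imatinib array 5, above 3466 to 3493. LIG1 read 244 on DMSO array 11, below 319.7 to 322. RNASEH2A read 1303 on imatinib array 7, below 1582 to 1602. TIMELESS read 1081 on nilotinib array 4, below 1356 to 1362. TIPIN read 548 on imatinib array 7, below 720.3 to 749.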

How the results depend on the processing

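The direction of the median of the replication genes for nilotinib against imatinib and for nilotinib against DMSO held under every alternative run. Median centring moved the most. It gave 46 genes lower for nilotinib against imatinib with a median of -0.66, 45 lower and 0 higher for nilotinib against DMSO with a median of -0.82, and 2 higher for imatinib against DMSO with the median turned to -0.13, where the medians of all genes were -0.25, -0.37 and -0.13. For nilotinib against DMSO it also turned CDC7 to -0.39, MCM2 to -0.43, MCM4 to -0.49, PCNA to -0.48, POLA1 to -0.37, POLD1 to -0.20, RFC1 to -0.45, RPA1 to -0.22, RPA2 to -0.13 and TIMELESS to -0.48. With quantile normalization nilotinib had 5 genes higher than DMSO and a median of -0.24, the median was -0.22 with cyclic loess, and it was -0.37 without the arrays of high actin ratio. With a minimum change of 0.5, 15 genes were lower for nilotinib against imatinib. Preferring probe sets without a suffix turned MCM4 to -0.50 and MCM5 to 0.36 for nilotinib against DMSO, and ORC4 to 0.10 for imatinib against DMSO. The cause of these shifts was not tested. Leaving out 1 array in turn gave 21 to 28 lower and a median of -0.40 to -0.35 for nilotinib against imatinib, 22 to 29 lower, 3 higher and -0.32 to -0.25 for nilotinib against DMSO, and 4 to 6 lower, 9 to 15 higher and 0.061 to 0.15 for imatinib against DMSO. Counts under the alternatives show how far the calls depend on the setting or on single arrays. Where no share of all genes from the same run is given, they do not set the list beside a background. Of the 28 genes lower for nilotinib against imatinib, 16 kept their call under all 26 alternatives. No paired analysis was possible because the array numbers run through the groups and no 2 groups share one. Dim genes such as E2F2 are limited by signal near background.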
